A study of Mus musculus with 8 samples.

Results

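Small nucleolar RNAs (snoRNAs) are short noncoding RNAs of the nucleolus, and 56 of them were measured here among 18820 genes in mouse fat. They were taken by name from the annotation of the arrays, as genes with a single symbol made of Snora (26 genes of the H/ACA box class) or Snord (30 genes of the C/D box class) followed by a number. Where a gene had more than 1 probe set, the one with the highest mean over all 8 arrays stood for it. The samples were epididymal white adipose tissue, the visceral fat beside the testis, of male C57BL/6 mice fed fat-rich chow (45% of its energy as fat) for 16 weeks, following a run-in of 2 weeks on chow with 10% fat energy. Wild-type mice gave 4 arrays and IL37TG mice, called transgenic here, gave 4. The transgenic mice carry human interleukin-37, a cytokine that restrains innate inflammation. Both groups ate the same diets, and no lean group was included. The wild-type mice were bought from a breeder and were not described as littermates of the transgenic mice. The promoter of the transgene and the ages are not given here, and no label says whether every replicate is its own mouse, so p-values speak only to the spread between these samples, which may be technical. No probe set for the human transgene was used here, so the labels have no such check.

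A snoRNA works by base pairing with a target RNA and carrying an enzyme to it. Box H/ACA RNAs bind dyskerin (Dkc1) and guide the conversion of uridine to pseudouridine, whereas box C/D RNAs bind fibrillarin (Fbl) and guide methylation of the ribose. Most targets lie in ribosomal RNA, and a few snoRNAs are instead needed for cutting the ribosomal precursor. Most vertebrate snoRNAs are not transcribed alone but are cut out of introns of a host gene, often a ribosomal protein gene or a noncoding gene of the Snhg group, whose spliced RNA can be turned over separately. Some have also been linked to fat metabolism: the C/D RNAs within Rpl13a take part in the death of cells overloaded with saturated fatty acid, and the H/ACA RNA U17 in cholesterol transport within cells.

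Values are log2 expression as the authors deposited it, so a difference of 1 is a doubling, and every difference is transgenic minus wild type. The 8 arrays had medians of 5.97 to 6.04 across 35556 probe sets. Among the genes that mark the tissue, 11 measured adipocyte markers had array means between 11.95 and 12.21, and 5 measured epididymis markers, which would mark adjoining tissue, had means between 3.76 and 4.20. The lower quartile of mean gene levels was 4.49, and 49 of the 56 snoRNAs reached it (24 H/ACA and 25 C/D). Probe sets read the genomic stretch of the snoRNA and cannot tell a mature RNA from an unspliced host transcript, and in bulk tissue fewer cells of a type and less RNA per cell cannot be told apart. The number of arrays limits the precision.

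H/ACA snoRNAs were higher in transgenic fat more often than genes in general. Of 26, 10 rose and 0 fell (limma, Benjamini-Hochberg adjusted p at most 0.05 over all 18820 genes), or 38.5%, where 2.07% of all genes rose and 1.27% fell. Of 30 C/D snoRNAs, 5 rose and 0 fell, or 16.7%. At an unadjusted p of 0.05, 16 H/ACA RNAs were higher and 0 lower, and 12 C/D RNAs were higher and 2 lower (Snord37 and Snord96a), where 11.2% of all genes were higher and 9.42% lower. The median difference was 0.43 over the H/ACA RNAs, 0.15 over the C/D RNAs and 0.02 over all genes. 23 of 26 H/ACA and 22 of 30 C/D differences were positive, against 55.3% of all genes. The difference between the classes was not tested.

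The groups did not overlap, with every transgenic array above every wild-type array, for 15 H/ACA and 8 C/D snoRNAs, or 57.7% and 26.7%, where 8.24% of all genes did so. No snoRNA had every transgenic array below every wild-type array, which 5.73% of all genes had. The mean over the 26 H/ACA RNAs was 6.24, 6.36, 6.27 and 6.22 on wild-type arrays 1 to 4 and 6.77, 6.87, 6.57 and 6.81 on transgenic arrays 1 to 4. All 4 transgenic means were above all 4 wild-type means. The mean over the 30 C/D RNAs was 6.40, 6.49, 6.55 and 6.43 on the wild-type arrays and 6.69, 6.85, 6.53 and 6.62 on the transgenic arrays, so that transgenic replicate 3 lay below wild-type replicate 3.

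**Figure D1:**
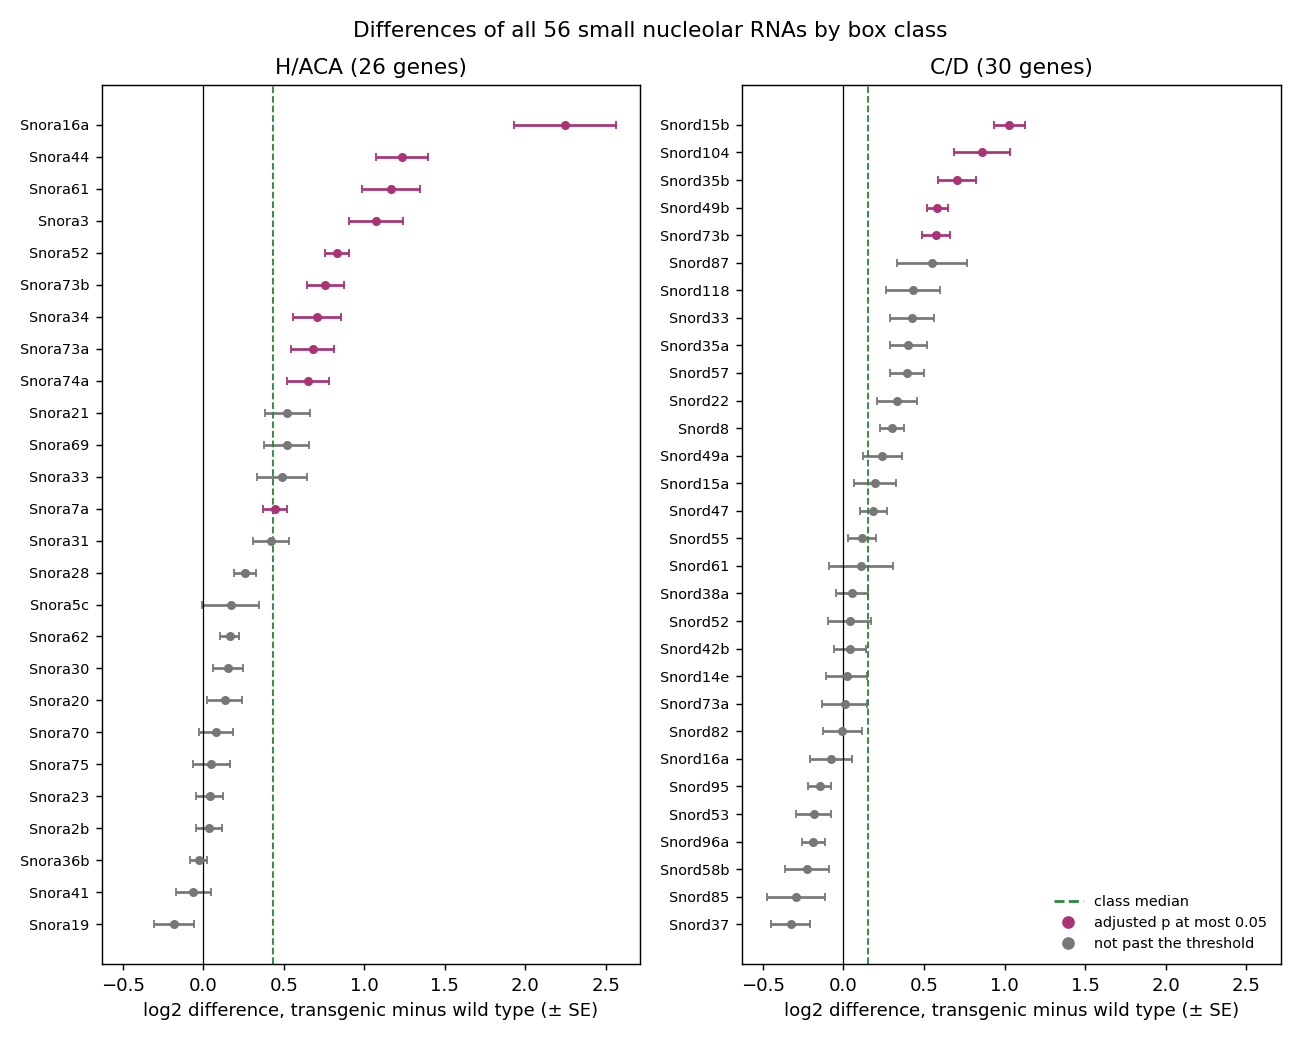
Log2 difference, transgenic minus wild type, of each of 26 H/ACA (left) and 30 C/D (right) snoRNAs; points are limma estimates from 4 arrays per group and bars are ± SE. The dashed lines mark the class medians, 0.43 and 0.15; 10 H/ACA and 5 C/D genes past the threshold are coloured, and all lie to the right of 0.

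The number of calls depended on which array was left out. With 1 wild-type array dropped, the H/ACA and C/D counts were 2 and 2 (replicate 1), 6 and 2 (replicate 2), 11 and 6 (replicate 3) and 1 and 2 (replicate 4). With 1 transgenic array dropped they were 4 and 3 (replicate 1), 2 and 2 (replicate 2), 12 and 5 (replicate 3) and 7 and 3 (replicate 4). The number of all genes that rose moved as well, from 390 to between 50 and 520. The class medians stayed between 0.38 and 0.47 for H/ACA and between 0.09 and 0.21 for C/D whichever array was left out. The 3 calls kept whichever array was left out were those of Snora52, Snord15b and Snord49b.

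The largest differences belonged to the 3 H/ACA RNAs of the noncoding host gene Snhg12. Snora16a was at 6.47, 6.35, 6.10 and 6.33 on wild-type arrays 1 to 4 and at 8.13, 8.82, 7.84 and 9.44 on transgenic arrays 1 to 4. The transgenic arrays were spread over a wider range than the wild-type arrays, but the lowest of them stood above the highest wild-type array. Snora16a rose 4.74-fold (log2 2.24, SE 0.32, limma adjusted p = 0.0161). Snora44 was at 6.05, 6.20, 5.96 and 6.14 in wild-type and at 7.66, 7.50, 6.86 and 7.27 in transgenic fat, a 2.35-fold rise (log2 1.23, SE 0.16, limma adjusted p = 0.0119). Snora61 was at 6.70, 6.96, 6.75 and 6.37 in wild-type and at 7.89, 7.67, 7.58 and 8.31 in transgenic fat, a 2.25-fold rise (log2 1.17, SE 0.18, limma adjusted p = 0.0198). All 3 had groups that did not overlap, and in all 3 transgenic replicate 3 was the lowest of its group. The calls were lost for 3 of the 8 arrays left out in turn for Snora16a, 1 for Snora44 and 4 for Snora61.

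The neighbouring noncoding gene Snhg3 hosts both copies of U17, the H/ACA RNA that acts in cutting the ribosomal precursor rather than as a guide. Snora73a was at 7.43, 7.36, 7.57 and 7.32 in wild-type and at 7.97, 8.13, 7.83 and 8.47 in transgenic fat (1.60-fold, log2 0.68, SE 0.13, limma adjusted p = 0.0388). Snora73b was at 7.45, 7.50, 7.54 and 7.43 in wild-type and at 8.09, 8.24, 8.05 and 8.57 in transgenic fat (1.69-fold, log2 0.76, SE 0.11, limma adjusted p = 0.0180). Both copies rose with groups that did not overlap, with transgenic replicate 4 highest. The copies are alike in sequence and their probe sets may read both, so they are not 2 independent measurements. Snora73a kept its call for 3 and Snora73b for 4 of the 8 arrays left out in turn.

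The promoters of hosts whose members moved together are shown with a pair for contrast: Rpl27a, whose 1 measured member rose, and Rack1, whose 2 measured members did not pass the threshold. Ribosomal protein genes and many snoRNA hosts begin at a stretch of C and T, the terminal oligopyrimidine tract, which links their translation to growth signals. The longest run of C and T between 10 bases before and 15 bases after the annotated start, on the strand that reads as the transcript, is in capitals. Each sequence runs from 250 bases before to 50 bases after the start (RefSeq, GRCm38.p6): Snhg12 at chr4:132308428-132308727 (plus strand), Snhg3 at chr4:132353637-132353936 (minus strand), Rpl27a at chr7:109518945-109519244 (plus strand) and Rack1 at chr11:48800110-48800409 (plus strand).
Snhg12: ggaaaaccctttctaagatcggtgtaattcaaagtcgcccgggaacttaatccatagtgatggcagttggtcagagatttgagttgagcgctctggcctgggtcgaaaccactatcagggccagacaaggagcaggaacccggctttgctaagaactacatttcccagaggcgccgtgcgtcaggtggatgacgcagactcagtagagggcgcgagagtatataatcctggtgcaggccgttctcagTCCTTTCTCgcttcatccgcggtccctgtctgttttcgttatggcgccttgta
Snhg3: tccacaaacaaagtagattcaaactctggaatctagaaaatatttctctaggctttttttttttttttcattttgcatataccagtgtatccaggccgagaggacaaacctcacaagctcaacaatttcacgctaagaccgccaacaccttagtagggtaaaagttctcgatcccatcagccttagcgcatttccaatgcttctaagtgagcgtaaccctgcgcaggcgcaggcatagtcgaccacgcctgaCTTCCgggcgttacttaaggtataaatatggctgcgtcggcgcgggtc
Rpl27a: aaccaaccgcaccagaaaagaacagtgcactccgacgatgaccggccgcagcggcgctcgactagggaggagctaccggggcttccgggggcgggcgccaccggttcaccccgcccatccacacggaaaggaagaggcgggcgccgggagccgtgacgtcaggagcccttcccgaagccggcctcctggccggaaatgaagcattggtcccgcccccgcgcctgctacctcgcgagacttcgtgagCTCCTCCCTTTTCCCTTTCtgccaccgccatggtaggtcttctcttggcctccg
Rack1: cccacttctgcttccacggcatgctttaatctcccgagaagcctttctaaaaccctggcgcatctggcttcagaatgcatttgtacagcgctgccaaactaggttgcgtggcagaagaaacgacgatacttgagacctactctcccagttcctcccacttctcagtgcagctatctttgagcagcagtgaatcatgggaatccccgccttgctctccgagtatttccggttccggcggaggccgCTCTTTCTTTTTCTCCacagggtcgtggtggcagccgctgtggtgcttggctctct
The run was 9 bases long in Snhg12, 5 in Snhg3, 19 in Rpl27a and 16 in Rack1. In Rpl27a it was cut off by the end of the searched stretch, since the next base is also a T. Of 35 host genes with a promoter window, 12 had a run of at least 7, as had 17.5% of all 27025 genes with a window. It was present in 4 of 9 hosts with a member that rose and in 8 of 26 other hosts. These are matches of letters at annotated starts, not tested sites.

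Genes around Snhg12 and Snhg3 on chromosome 4 were mostly not called. Neither host was itself among the genes tested. Trnau1ap and Rcc1, which lie between them, differed by 0.21 and -0.11 (limma adjusted p = 0.151 and 0.563). The Trnau1ap groups did not overlap, at 8.43 to 8.71 in wild-type and 8.77 to 8.84 in transgenic fat, and those of Rcc1 overlapped. Of the 3 nearest measured genes on each side, Gmeb1, Taf12, Rab42, Phactr4 and Med18 differed by between -0.22 and 0.16 and did not pass. Sesn2, a stress-induced inhibitor of growth signalling and the farthest of the 3 beyond Snhg3, rose by 0.59 (SE 0.09, limma adjusted p = 0.0202). These neighbours were looked up after the values of the snoRNAs were seen.

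The other H/ACA RNAs that rose came from unrelated hosts. Snora52, which lies in the ribosomal protein gene Rplp2, was at 10.15, 10.04, 10.21 and 10.10 in wild-type and at 10.98, 11.10, 10.81 and 10.93 in transgenic fat (1.78-fold, log2 0.83, SE 0.07, limma adjusted p = 0.00535). Its arrays were tight in both groups, with a gap between the groups wider than either range. Snora3, in Rpl27a, was at 7.48, 7.92, 7.49 and 7.65 and then at 8.69, 8.88, 8.27 and 9.01 (2.10-fold, log2 1.07, SE 0.17, limma adjusted p = 0.0203). A second probe set of Snora3 differed by 1.08. Snora7a, in Rpl32, was at 7.44, 7.46, 7.50 and 7.40 in wild-type and at 7.88, 8.01, 7.72 and 7.97 in transgenic fat (1.36-fold, log2 0.45, SE 0.07, limma adjusted p = 0.0218). Transgenic replicate 3 was again the lowest of its group for Snora52, Snora3 and Snora7a. Snora3 lost its call for 4 and Snora7a for 6 of the 8 arrays left out.

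Snora74a and Snora34 passed close to the threshold. Snora74a, the H/ACA RNA also named U19, which lies in Snhg4, was at 5.57, 6.05, 5.85 and 5.51 in wild-type and at 6.52, 6.48, 6.18 and 6.40 in transgenic fat (1.57-fold, log2 0.65, SE 0.13, limma adjusted p = 0.0440). Snora34, in Kansl2, a subunit of a histone acetylation complex, was at 4.98, 5.36, 5.30 and 5.18 in wild-type and at 5.97, 6.19, 5.51 and 5.96 in transgenic fat (1.63-fold, log2 0.70, SE 0.15, limma adjusted p = 0.0469). Their groups did not overlap, but the nearest arrays were close: wild-type replicate 2 and transgenic replicate 3 were at 6.05 and 6.18 for Snora74a and at 5.36 and 5.51 for Snora34. Snora74a lost its call for 5 and Snora34 for 6 of the 8 arrays left out.

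**Figure D2:**
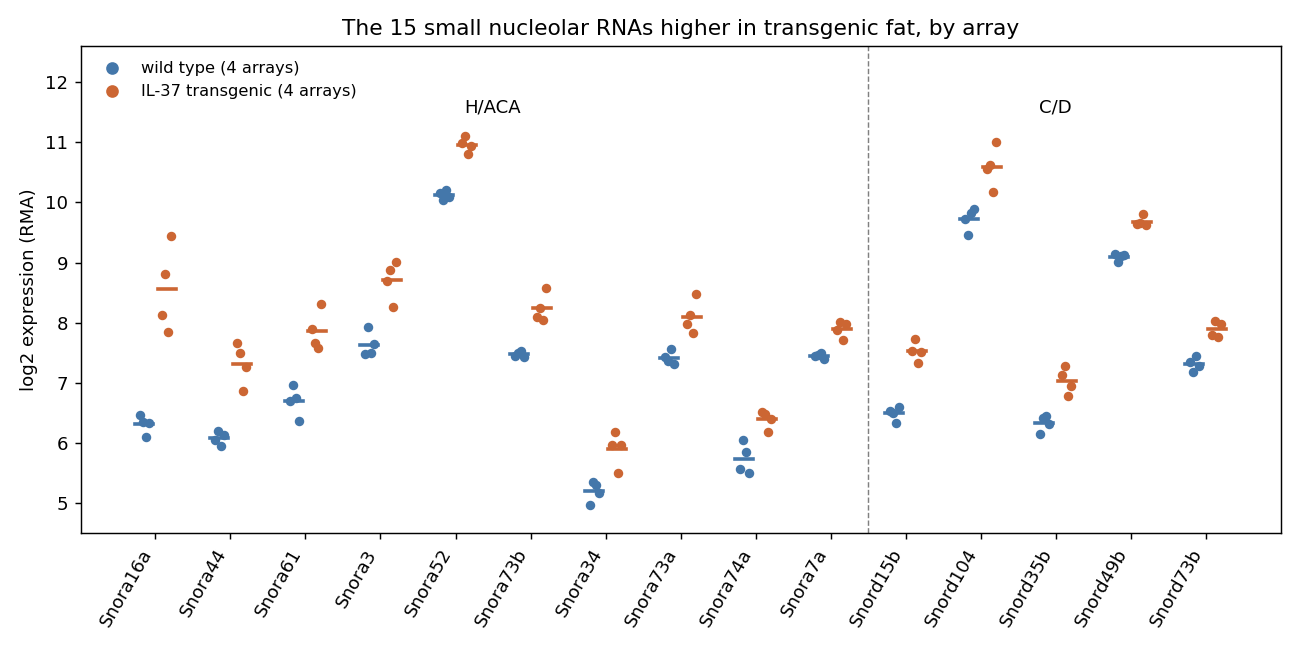
Log2 expression of the 15 snoRNAs past the threshold on each of the 8 arrays, H/ACA to the left and C/D to the right of the dashed line; points are arrays and bars group means (4 arrays per group). In each of the 15 every transgenic array lies above every wild-type array, with the widest gap in means for Snora16a.

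The 16 H/ACA RNAs that did not pass ran from -0.18 (Snora19) to 0.52 (Snora21), with a median of 0.14. Of these, 5 had groups that did not overlap: Snora28, Snora31, Snora33, Snora62 and Snora69. Snora28, in the translation factor gene Eif5, was at 7.61, 7.62, 7.79 and 7.63 in wild-type and at 7.84, 7.95, 8.02 and 7.89 in transgenic fat, the nearest to the threshold (log2 0.26, SE 0.07, limma adjusted p = 0.0757). Snora23, in the nuclear import gene Ipo7, was at 8.85, 9.09, 9.15 and 9.07 and then at 9.09, 9.21, 9.002 and 9.02, a difference of 0.04 (SE 0.08, limma adjusted p = 0.826). The groups overlapped. Snora36b and Snora41 were under the lower quartile of mean gene levels, with wild-type means of 3.28 and 4.19, and a difference there would be understated.

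Among the C/D RNAs, Snord15b rose the most. It lies in the ribosomal protein gene Rps3 and was at 6.54, 6.50, 6.33 and 6.61 in wild-type and at 7.53, 7.73, 7.33 and 7.51 in transgenic fat (2.04-fold, log2 1.03, SE 0.10, limma adjusted p = 0.00535). Snord104, in the noncoding gene Gm36220, was at 9.72, 9.46, 9.83 and 9.89 in wild-type and at 10.56, 10.62, 10.17 and 11.00 in transgenic fat (1.81-fold, log2 0.86, SE 0.17, limma adjusted p = 0.0426). Snord35b was at 6.15, 6.42, 6.45 and 6.32 and then at 7.13, 7.29, 6.79 and 6.95 (1.63-fold, log2 0.71, SE 0.12, limma adjusted p = 0.0234). All 3 separated the groups, and transgenic replicate 3 was lowest of its group in each. The calls of Snord104 and Snord35b were each lost for 6 of the 8 arrays left out.

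Snord49b and Snord73b rose by less. Snord49b, in the noncoding gene 2410006H16Rik, was at 9.14, 9.01, 9.11 and 9.13 in wild-type and at 9.63, 9.66, 9.81 and 9.63 in transgenic fat (1.50-fold, log2 0.58, SE 0.06, limma adjusted p = 0.00548). Here transgenic replicate 3 was the highest of its group, whereas it was the lowest in every other member that rose. Snord73b, in the ribosomal protein gene Rps3a1, was at 7.35, 7.18, 7.45 and 7.28 and then at 7.79, 8.03, 7.77 and 7.97 (1.49-fold, log2 0.58, SE 0.09, limma adjusted p = 0.0180). Its groups did not overlap, and its call was lost for 4 of the 8 arrays left out.

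The C/D RNAs of Rpl13a, those tied to lipid-induced cell death, were higher on average but did not pass. Snord33 was at 6.80, 6.73, 6.92 and 6.94 in wild-type and at 7.54, 7.46, 6.93 and 7.16 in transgenic fat (log2 0.42, SE 0.14, limma adjusted p = 0.128). Snord35a was at 7.28, 7.26, 7.46 and 7.43 and then at 7.92, 7.96, 7.68 and 7.47 (log2 0.40, SE 0.12, limma adjusted p = 0.0994). The groups did not overlap for Snord35a, but in Snord33 transgenic replicate 3 lay at the level of wild-type replicate 4. Snord32a and Snord34 of the same host were not among the genes tested. Rpl13a itself differed by 0.05 (limma adjusted p = 0.633).

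Of the Snord-named RNAs that act in cutting the ribosomal precursor, Snord118, Snord22 and Snord14e did not pass. Snord118, known as U8 and needed for the large-subunit RNAs, was at 4.12, 4.24, 4.22 and 3.90 in wild-type and at 4.52, 5.05, 4.35 and 4.29 in transgenic fat (log2 0.43, SE 0.17, limma adjusted p = 0.198). Its mean was under the lower quartile of mean gene levels. Snord22, known as U22 and needed for the small-subunit RNA, was at 5.45, 5.73, 5.68 and 5.29 and then at 5.71, 6.13, 5.79 and 5.86 (log2 0.33, SE 0.13, limma adjusted p = 0.182). Snord14e, a U14 copy in the chaperone gene Hspa8, was at 8.09, 8.19, 8.05 and 8.00 and then at 8.47, 8.08, 8.06 and 7.80 (log2 0.02, SE 0.13, limma adjusted p = 0.952). Snord47, the 1 measured C/D RNA of the growth-arrest gene Gas5, differed by 0.19 (SE 0.08, limma adjusted p = 0.253).

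The 25 C/D RNAs that did not pass had a median difference of 0.05. Of these, 3 had groups that did not overlap: Snord8, Snord35a and Snord118. Snord8, in the chromatin remodeller gene Chd8, was nearest to the threshold (log2 0.30, SE 0.07, limma adjusted p = 0.0694). Snord57, which lies in Nop56, differed by 0.39 (limma adjusted p = 0.0829). Snord87, within the spans of Snhg6 and Mcmdc2, differed by 0.55 with a wide spread of transgenic arrays, from 5.74 to 6.87 (SE 0.22, limma adjusted p = 0.204). 8 C/D differences were negative, and the largest of these was Snord37, in the elongation factor gene Eef2. It was at 5.08, 5.28, 5.05 and 4.87 in wild-type and at 4.79, 5.01, 4.54 and 4.62 in transgenic fat (log2 -0.33, SE 0.12, limma adjusted p = 0.179), and its groups overlapped.

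Members that share a host did not always share a difference. In Rps3, Snord15b rose by 1.03, whereas Snord15a was at 5.09, 4.98, 5.04 and 4.72 in wild-type and at 4.998, 5.51, 5.09 and 5.02 in transgenic fat (log2 0.20, limma adjusted p = 0.437). In Kansl2 the differences were 0.70 for Snora34 and 0.04 for Snora2b, in Rps3a1 they were 0.58 for Snord73b and 0.01 for Snord73a, and in 2410006H16Rik they were 0.58 for Snord49b and 0.24 for Snord49a. Both members were near 0 in Ncl, the nucleolin gene (Snora75 0.05, Snord82 -0.01), and both were negative in Rack1 (Snord95 -0.15, Snord96a -0.19). The difference between 2 members of a host was not tested.

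No measured host gene passed the test, although Rplp2 did with arrays weighted by their quality (log2 0.25, limma adjusted p = 0.0403; 0.0572 to 0.614 under the other alternatives). A host was taken as a gene whose span contains the snoRNA in the RefSeq gene table of GRCm38.p6, without regard to strand, which that table does not give. 55 snoRNAs lay within another gene, Snord118 being the exception, and 36 of them (18 of each class) had a host among the genes tested. Only 5 of the 15 members that rose were among these 36. The hosts of the other members that rose, Snhg12 and Snhg3 included, had no value here. For Snord87 the measured host was Mcmdc2, at a low wild-type mean of 3.58, since Snhg6 was not among the genes tested. Of the 31 measured hosts, 0 rose and 0 fell (limma), 1 had an unadjusted p under 0.05 with a positive difference, and the median difference was -0.02. Their differences ran from -0.18 (Nop56) to 0.24 (Rplp2, limma adjusted p = 0.0773). The snoRNA had the larger difference in 16 of 18 H/ACA and 12 of 18 C/D cases, which is given as a count with no test.

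Snora52 rose by 0.83 while its host Rplp2 was at 5.40, 5.52, 5.52 and 5.47 in wild-type and at 5.69, 5.77, 5.60 and 5.79 in transgenic fat (log2 0.24). Snord15b rose by 1.03 while Rps3 was at 10.61, 10.69, 10.59 and 10.59 and then at 10.62, 10.70, 10.36 and 10.57 (log2 -0.05, limma adjusted p = 0.744). For Rplp2 the groups stood apart by a small step, and for Rps3 they overlapped. The Rplp2 probe set read far below the mean of 70 cytosolic ribosomal proteins (10.30 in wild-type fat), so the difference of this host may be understated. Rpl27a (log2 0.10), Kansl2 (log2 -0.13) and Rps3a1 (log2 0.09), the other measured hosts of members that rose, did not pass either (limma adjusted p from 0.261 to 0.495).

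**Figure D3:**
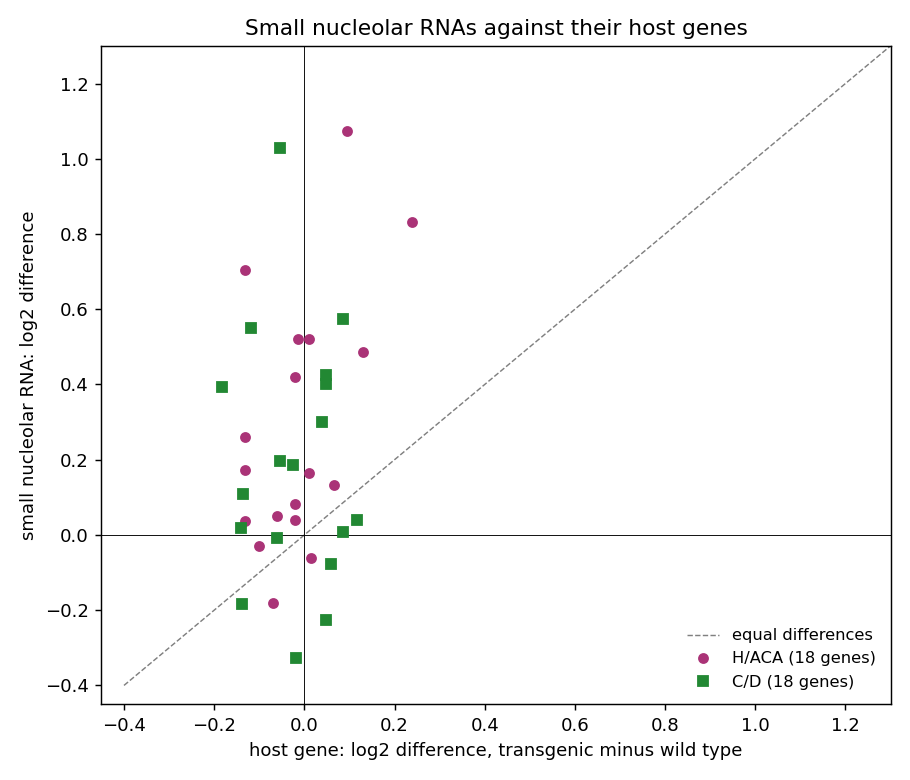
Log2 difference of each snoRNA (vertical axis) against that of its measured host gene (horizontal axis), transgenic minus wild type, for 18 H/ACA (circles) and 18 C/D (squares) genes. Hosts stay between -0.18 and 0.24, while the snoRNAs reach 1.07, so that 28 of 36 lie above the dashed line of equal differences.

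More of the longer members rose, and more of those with a higher array signal. The median length in the RefSeq table was 119 bases for H/ACA and 69.5 for C/D RNAs. Of 18 members of at most 69 bases 2 rose (median difference 0.04), of 11 members of 70 to 99 bases 3 rose (0.40), of 17 members of at least 100 but under 130 bases 4 rose (0.33) and of 10 members of 130 or more 6 rose (0.67). Within the classes, length and difference had Spearman's rho of 0.38 over 26 H/ACA and 0.43 over 30 C/D RNAs (Pearson's r 0.19 and 0.44). Mean signal and difference had a rho of 0.57 and 0.31 (Pearson's r 0.45 and 0.40). These correlations run across genes measured on the same 8 arrays and are given as descriptions. Some spans are shorter than a full H/ACA RNA, such as the 62 bases listed for Snora61.

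**Figure D4:**
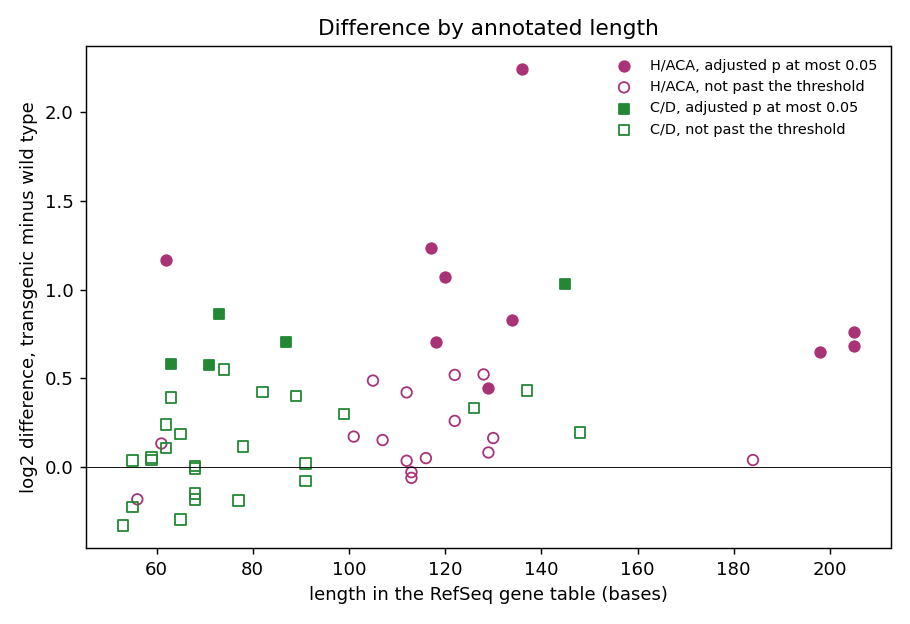
Log2 difference, transgenic minus wild type, against the length in the RefSeq gene table (bases) for 26 H/ACA (circles) and 30 C/D (squares) snoRNAs; filled symbols passed the threshold. The 18 members of at most 69 bases have a median difference of 0.04, and the 10 of 130 bases or more 0.67.

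No protein of the particles passed the test. Of the 4 H/ACA core proteins 0 passed (limma): Dkc1, the pseudouridine synthase, differed by 0.13, Nop10 by 0.12, Nhp2 by -0.10 and Gar1 by -0.12 (limma adjusted p from 0.477 to 0.558). Of the 4 C/D core proteins 0 passed as well (limma): the methyltransferase Fbl differed by -0.04, Nop56 by -0.18, Nop58 by -0.19 and Snu13 by 0.22 (limma adjusted p from 0.193 to 0.853). Dkc1 was at 7.40, 7.45, 7.59 and 7.49 in wild-type and at 7.75, 7.84, 7.41 and 7.47 in transgenic fat, so that its groups overlapped. The limma fit gave 0 rises and 0 falls among 16 assembly factors, 18 genes of intron debranching and end trimming, 34 ribosomal RNA processing genes, 15 genes of RNA polymerase I and its factors and 70 cytosolic ribosomal proteins. Their median differences were 0.02, 0.00, -0.07, -0.03 and 0.06. In the same order, 1, 0, 1, 2 and 13 of them were higher at an unadjusted p of 0.05 and 2, 1, 3, 0 and 0 were lower, against 11.2% and 9.42% of all genes. Ribosomal protein differences were positive for 54 of 70 (77.1%), where 55.3% of all genes had a positive difference. Every transgenic array was above every wild-type array for 12 of these 70 (17.1%), where 8.24% of all genes did so. Of 10 measured noncoding host genes, Snhg11, which held no member among the 56, rose (log2 0.91, SE 0.10, limma adjusted p = 0.00579). With all its probe sets averaged, Snhg11 rose by less (log2 0.55, limma adjusted p = 0.00586).

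Several other small noncoding RNAs were also higher. Of 5 measured RNAs with Rnu names, 2 rose, where 2.07% of all genes rose, and 3 reached the lower quartile of mean gene levels. Rnu3a, the U3 RNA, belongs to the C/D class by function but carries another name, and was at 5.32, 5.45, 5.54 and 5.41 in wild-type and at 6.12, 6.12, 5.70 and 6.17 in transgenic fat (1.51-fold, log2 0.60, SE 0.11, limma adjusted p = 0.0334). Rnu2-10, a U2 RNA of the spliceosome, was at 8.59, 8.66, 8.69 and 8.72 and then at 9.98, 10.07, 10.25 and 10.37 (log2 1.50). The groups of both stood apart. Of 3 small Cajal body RNAs, which guide the same modifications on spliceosomal RNAs, Scarna13 rose (log2 1.39) and Scarna8 and Scarna17 differed by 0.12 and 0.00. Of 6 other small noncoding RNAs (Rmrp, Rn7sk, Rny1, Rny3, Terc and Vaultrc5), Rny3, a Y RNA, rose (log2 0.42, SE 0.06, limma adjusted p = 0.0159). All 6 differences were positive, from 0.03 (Terc) to 0.91 (Rny1), where 55.3% of all genes had a positive difference.

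MicroRNA hairpins gave another picture. Of 306 measured, 4 rose and 1 fell (1.31% higher), with a median difference of 0.01, and 138 of them reached the lower quartile of mean gene levels. Those with the lowest p that rose were Mir184 (log2 0.41), Mir218-2 (log2 0.71) and Mir365-2 (log2 0.32).

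**Figure D5:**
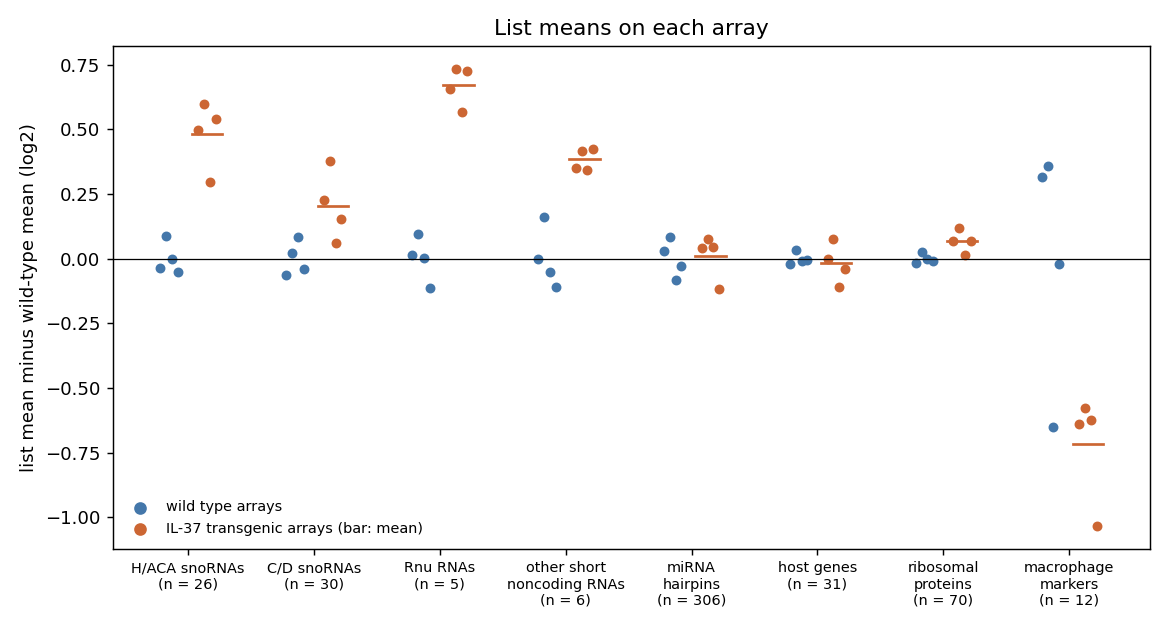
Mean log2 level of each list on each array, less the mean of the 4 wild-type arrays, with n genes per list; points are arrays and bars the transgenic means. H/ACA, Rnu and other small noncoding RNAs separate the groups, while microRNA hairpins and host genes do not, and the macrophage markers are lower on the transgenic arrays except against wild-type replicate 3.

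Most macrophage markers were lower in transgenic fat, though few passed the threshold. Of 12, 1 rose (Cd163), 3 fell (Cx3cr1, Fcgr1 and Trem2) and 8 did not pass, where 2.07% of all genes rose and 1.27% fell. Differences were negative for 11 and positive for 1, with a median of -0.71. At an unadjusted limma p of 0.05, 9 were lower and 1 higher, where 9.42% of all genes were lower and 11.2% higher. The mean over the 12 lay between 8.71 and 9.72 on the wild-type arrays and between 8.32 and 8.78 on the transgenic arrays. Wild-type replicate 3, with the lowest wild-type marker mean of 8.71, lay within the transgenic range. Its H/ACA mean of 6.27 lay within the other wild-type values of 6.22 to 6.36 and below every transgenic value. Means over 7 T and B cell markers (6.18 to 7.12 and 6.47 to 6.85) and 8 mesothelial markers (7.30 to 8.59 and 7.82 to 8.30) overlapped between the groups, as did those of the 5 epididymis markers. Of 11 adipocyte markers 2 rose (Adipoq and Slc2a4), with means of 11.95 to 12.09 and 12.14 to 12.21. The part of the macrophage and adipocyte differences in the snoRNA results was not tested.

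Array names carry a letter and a number of unstated meaning, which were uneven between the groups. Within number 5 (1 array of each group), 7 (2 wild-type arrays and 1 transgenic array) and 9 (1 wild-type array and 2 transgenic arrays), the H/ACA mean differed by 0.60, 0.34 and 0.43 and the C/D mean by 0.29, 0.11 and 0.17. Since the H/ACA means did not overlap between groups, the sign of their values was fixed. Macrophage markers differed by 0.08, -0.77 and -1.19 within the same numbers. Letter F held wild-type arrays alone and letter H transgenic arrays alone, while letter G held 2 wild-type arrays and 1 transgenic array, between which the H/ACA mean differed by 0.52 and the C/D mean by 0.20. With the letter as a block 0 snoRNAs of either class passed, and 10 of all genes rose. That estimate rests on letter G, and was 0.83 for Snora52, 1.06 for Snord15b and 1.61 for Snora44. The groups of these RNAs did not overlap, so their sign was fixed here as well. With the number as a block 2 of each class rose, where 44 of all genes did.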

How the data were processed

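Total RNA was made into whole-transcript cDNA and labelled with biotin, per the labels' protocols. The values the authors deposited are log2 expression for each probe set. RMA, a method that removes background, matches array quantiles and combines probes, is named in the submitters' processing notes. Its settings were not stated in the sources used here. Equalising by quantiles hides a shift shared by most genes, and dim probe sets understate differences.

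Of 35556 probe sets, 21218 had 1 symbol, 1881 several and 12457 none. For 21185 probe sets the symbol was brought up to date by Entrez number from the RefSeq gene table of GRCm38.p6. 76 probe sets named a small nucleolar RNA, of which 13 named several genes and were left out. 7 members had 2 probe sets, and 4 of the second probe sets repeated the same 8 values. All 56 members matched the RefSeq table. Its genes carry no strand, so hosts were found by span alone.

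The comparison used R 4.3.3 and limma 3.58.1, fitting 18820 genes with lmFit, then eBayes, as a two-sided test with neither a filter nor a block, with a Benjamini-Hochberg threshold of 0.05. Members and lists were chosen with earlier results of these data known. Named genes were the 10 lowest p-values and 3 highest levels of each class, the members of 4 fixed sets, the 8 core proteins, the measured hosts of these, and up to 3 genes past the threshold of each other list. Other members are named by their values. On simulated data for this comparison with 18820 genes, 58%, 86%, 96% and 100% of 50 genes changed by 0.5, 1, 2 and 3 log2 units were called, and 11 unchanged genes. The simulated noise was drawn separately for each gene and array, so array effects shared between genes were not part of it. The alternatives were other normalisations, filters, probe set rules, priors, array weights, blocks, left-out arrays and a threshold of 0.10. Plots were made in Python 3.11.15 using matplotlib 3.10.9. Sequences of the small nucleolar RNAs themselves were not used here.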

Additional observations from a re-analysis of the deposited data

Results flagged for a closer look

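In 170 groups of 4 arrays (the named genes, all members and the class means), 11 held a single array standing well away from its group, a share of 6.47%. By chance about 1 in 20 would. Among snoRNAs that rose, Snord49b was at 9.81 on transgenic replicate 3, above the others of its group. Among other members, Snora19 was at 4.999 on transgenic replicate 2, and on wild-type arrays Snora28 was at 7.79 and Snord82 at 9.50 on replicate 3, Snora70 at 6.38 on replicate 2 and Snord16a at 7.24 on replicate 1. Among core proteins, Fbl was at 7.84 on wild-type replicate 3, Nop56 at 9.20 on wild-type replicate 2 and Nop58 at 7.32 on wild-type replicate 1. On transgenic replicate 3, Rnu3a was at 5.70 and Mir184 at 4.15, both below the others of the group.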

How the results depend on the processing

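The 15 members that rose kept their sign in all 311 combinations of member and alternative (21 alternatives), 206 of them past the threshold. All 15 had groups that did not overlap. Their sign was therefore fixed in advance for left-out arrays, array weights, blocks, priors, filters and the threshold, and is no test of the rise. Leaving out 1 array in turn, the H/ACA count ran from 1 to 12 and the C/D count from 2 to 6. The counts were 3 and 1 with the replicate block, where 40 of all genes rose. Same-numbered arrays had correlations of deviations of only 0.06 to 0.10 and share a number, not a stated origin. The snoRNA counts were 0 and 0 with the letter and 2 and 2 with the number of the array names as a block. Array weights gave 13 H/ACA and 8 C/D calls, where 3.85% of all genes rose. A threshold of 0.10 gave 8 C/D calls, where 4.55% of all genes rose. It also added Snora21, Snora28, Snora31 and Snora69 to the H/ACA calls. Leaving out both transgenic arrays with names ending in 2, chosen after seeing the data, gave 2 and 1, where 13 of all genes rose. With only the genes over the median level tested, which drops dim members, the class medians were 0.68 and 0.30.

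Differences near 0 changed sign. With the letter block Snora23 was -0.017, Fbl 0.11, Nop56 0.0407, Ipo7 0.0733, Rps3 0.0381 and Chd8 -0.0036. With array weights Ipo7 was 0.0009 and Gas5 0.0171, with all probe sets averaged Eef2 was 0.0074, and with the number block Snord14e was -0.0076. Leaving out 1 array, Snora23 ran from -0.0236 to 0.0769, Snord14e from -0.10 to 0.12, Fbl from -0.0921 to 0.0326, Ipo7 from -0.0822 to 0.0517, Rps3 from -0.10 to 0.0148 and Gas5 from -0.0747 to 0.0227. Without both arrays ending in 2 Chd8 was -0.0161, and without wild-type replicate 3 and transgenic replicate 4 together, also chosen after seeing the data, Gas5 was 0.0361. The cause was not tested.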
